A study of Mus musculus with 12 samples.

Results

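The genes described here are the 66 mouse genes named Zfp900 to Zfp999 that occur in the tables of 41079 gene IDs, found by the gene name Zfp9 followed by 2 digits. The RNA came from mouse embryonic stem cells, pluripotent cells derived from the early embryo, and was sequenced in 12 libraries of 4 groups with 3 libraries each. The groups were Bod1l knockout (KO) cells treated with etoposide, untreated Bod1l KO cells, wild-type (WT) cells treated with etoposide, and untreated WT cells. The KO labels also name tamoxifen and the WT labels do not, so the loss of Bod1l and tamoxifen cannot be told apart. The BOD1L protein works with SETD1A, a methyltransferase for lysine 4 on histone H3, and DNA damage repair genes and that mark are named in the study's title. Etoposide traps topoisomerase II on cut DNA. The labels call the replicates biological without describing separate cultures, give no dose or time for etoposide, and do not say which part of Bod1l was deleted.

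Most genes of this naming block encode zinc finger proteins with a KRAB domain. The zinc fingers bind DNA, and the KRAB domain recruits TRIM28 (KAP1), which brings the histone methyltransferase SETDB1 and so places a repressive mark on lysine 9 of histone H3. In embryonic stem cells this system is best known for keeping transposable elements silent. The genes arose by repeated local duplication and stand in clusters of close copies, and whole clusters have been deleted in mouse embryonic stem cells to study their effect on retrotransposons.

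Levels are given in TPM, the authors' estimate of transcript abundance scaled by gene length and library. The naming block was checked against transcript models of an earlier annotation, GENCODE M21, which held 62 of the 66 genes by symbol. The longest open reading frame matched a KRAB pattern in 54 of the 62, and the median number of zinc finger patterns was 11, with a range of 0 to 21. Zfp957 and Zfp972 had none, and the KRAB pattern was missed in Zfp949, Zfp954 and Zfp956, among others. Of the 66 genes, 58 reached a mean of a TPM of at least 1 over the 12 libraries and were tested among 14107 genes. That filter can let a gene through by the group in which it is high. The genes just inside were Zfp974, with a mean of 1.87 TPM, and Zfp983, with 2.45 TPM. Those just outside were Zfp965, with 0.945 TPM, and Zfp973, with 0.910 TPM. The other genes left out were Zfp964, Zfp966, Zfp967, Zfp968 and Zfp969, between 0.247 and 0.826 TPM, and Zfp957, which was listed at 0 in all 12 libraries.

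By position, 45 of the 66 genes fell into 6 clusters of at least 3 genes with neighbouring starts at most 1 Mb apart (GRCm39 coordinates throughout, unless another build is named). The cluster of chromosome 4 held 14 genes at chr4:145237329-147933583, all of them tested. The cluster of chromosome 17 held 10 genes at chr17:21786082-23086285, all tested. The cluster of chromosome 2 held 10 genes at chr2:175214229-177721858, of which 4 were tested. Smaller clusters lay at chr13:66258188-67508691 and chr7:42228821-42841533, with 4 tested genes each, and at chr8:69661701-70202612, with 2 of 3 tested. The 20 tested genes in no cluster were spread over 11 chromosomes, among them Zfp950 on chromosome 19 and Zfp938 on chromosome 10.

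Promoter sequences were taken from RefSeq (GRCm38.p6) for 55 of the 66 genes, 10 of them in the cluster of chromosome 4. The first listed promoters of 7 of those 10 genes, Zfp979, Zfp980, Zfp981, Zfp984, Zfp985, Zfp987 and Zfp988, are copies of each other. Each had a median identity above 60% to the other promoters of the cluster, and the closest pair, Zfp980 and Zfp979, was 89.8% identical. The longest run held by all 7 was the 15 bases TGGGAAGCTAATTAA. Below are the 170 bases (GRCm38.p6) before the start of 5 of these genes and of Zfp933, the gene at the end of the cluster that went the other way in KO cells. Capitals mark the run, and Zfp933 does not hold it. The 5 genes shown were all called lower in untreated KO cells, and the choice was made with the results known. Zfp988, also called lower, and Zfp987, which holds the run but did not pass, are not shown. Zfp993, which lacks the run and did not pass, is not shown either.

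Zfp980, chr4:145670527-145670696, plus strand: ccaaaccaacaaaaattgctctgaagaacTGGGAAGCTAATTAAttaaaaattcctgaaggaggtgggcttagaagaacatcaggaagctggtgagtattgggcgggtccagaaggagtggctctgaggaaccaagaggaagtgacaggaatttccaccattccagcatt
Zfp979, chr4:147642509-147642678, minus strand: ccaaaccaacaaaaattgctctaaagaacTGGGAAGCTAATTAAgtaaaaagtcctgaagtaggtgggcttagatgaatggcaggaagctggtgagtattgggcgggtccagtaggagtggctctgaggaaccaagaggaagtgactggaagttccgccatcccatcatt
Zfp985, chr4:147553107-147553276, plus strand: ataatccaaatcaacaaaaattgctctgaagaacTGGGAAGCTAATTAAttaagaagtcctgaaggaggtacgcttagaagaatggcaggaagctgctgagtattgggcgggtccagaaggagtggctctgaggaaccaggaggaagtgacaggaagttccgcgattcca
Zfp981, chr4:146514750-146514919, plus strand: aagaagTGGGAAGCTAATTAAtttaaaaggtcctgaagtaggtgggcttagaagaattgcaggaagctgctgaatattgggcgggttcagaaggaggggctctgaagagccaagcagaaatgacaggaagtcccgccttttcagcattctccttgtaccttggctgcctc
Zfp984, chr4:147809789-147809958, minus strand: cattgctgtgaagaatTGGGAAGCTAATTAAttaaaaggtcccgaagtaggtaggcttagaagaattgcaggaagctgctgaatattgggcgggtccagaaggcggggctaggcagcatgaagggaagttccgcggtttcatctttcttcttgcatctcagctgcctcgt
Zfp933, chr4:147848419-147848588, minus strand: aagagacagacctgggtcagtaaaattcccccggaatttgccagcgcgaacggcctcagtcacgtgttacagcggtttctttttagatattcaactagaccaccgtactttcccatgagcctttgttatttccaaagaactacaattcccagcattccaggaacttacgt

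Searched on both strands, the run lay in the first listed promoter of 11 of 27025 genes (0.0407%), all on chromosome 4. Besides the 7 genes that define it, these were Zfp534, Zfp600, Rex2 and Gm13212, and a later listed promoter of Zfp982 held it too. The promoters of Zfp933, Zfp982 and Zfp993 as first listed were at most 52.2% identical to any other of the cluster. Cluster promoters on chromosome 4 held a median of 4.5 CpG dinucleotides per window (250 bases before to 50 after a start). The median was 5 in the cluster of chromosome 2, 8 over all 55 promoters and 7 over the 27025. Close copies were not particular to chromosome 4 either. The median identity between promoters was 78.2% in the cluster of chromosome 2, up to 100%, and 51.6% in that of chromosome 4.

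In the cluster of chromosome 17, the promoters of Zfp942 and Zfp944 were 84.3% identical, and 6 of its 10 promoters held CACGTG on either strand, which is its own reverse complement, against 7.24% of the 27025. The 170 bases before both starts (GRCm38.p6) are given with CACGTG in capitals, since they carry nearly the same letters while only Zfp942 passed the test in KO cells.

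Zfp942, chr17:21962465-21962634, minus strand: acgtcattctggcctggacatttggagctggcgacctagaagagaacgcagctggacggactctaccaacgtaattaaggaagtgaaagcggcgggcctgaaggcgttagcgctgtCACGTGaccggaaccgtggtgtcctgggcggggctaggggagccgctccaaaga
Zfp944, chr17:22361401-22361570, minus strand: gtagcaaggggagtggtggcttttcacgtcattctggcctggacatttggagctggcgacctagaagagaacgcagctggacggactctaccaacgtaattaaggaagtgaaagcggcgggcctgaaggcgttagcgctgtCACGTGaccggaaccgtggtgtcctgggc

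Other short motifs were counted in the same windows on both strands. CCAAT lay in 42 of the 55 promoters (76.4%), against 37.9% of all, and CGGAAG in 20 (36.4%), against 17.2% of all. None of the 20 was in the cluster of chromosome 4. GGGCGG lay in 20 (36.4%), near the 35.9% of all, with 7 of these in the cluster of chromosome 4. TATAAA lay in none of the 55, against 14.2% of all. These counts describe letters only, and close copies count more than once.

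Library depth ranged from 5.23 to 7.76 gigabases of aligned sequence, and replicates correlated at 0.9943 to 0.9955 across genes. The KO label was checked on Bod1l, which had 12.0, 11.2 and 11.5 TPM in untreated KO libraries, against 48.5, 48.8 and 50.6 TPM in untreated WT libraries (log2 difference -2.002 ± 0.049, SE). Stem cell identity was checked on 7 markers, all tested, whose summed level was 7130 to 7252 TPM in untreated KO libraries and 7800 to 7816 TPM in untreated WT libraries. In KO cells 2 of the 7 were lower and none higher without etoposide, and 2 were lower and 4 higher with it. Of 8 feeder fibroblast markers 2 reached the filter, Fap was listed at 0, and the sum was 4.93 to 6.01 TPM in untreated KO libraries and 6.53 to 7.26 TPM in untreated WT libraries. The 18 markers of the rare 2-cell-like state, among them Zscan4 and Usp17l genes, had a summed level of 134 to 155 TPM in untreated KO libraries and 15.0 to 16.4 TPM in untreated WT libraries. With etoposide the sum was 146 to 166.5 TPM in KO libraries and 14.4 to 17.1 TPM in WT libraries. The 14 of them that were tested were called higher in KO cells, but several reached the filter only through the KO libraries, so that count is partly set by the filter. Neural markers summed to 138 to 150 TPM in untreated KO libraries and 140 to 148 TPM in untreated WT libraries, and mesoderm markers to 12.5 to 15.2 TPM in untreated KO libraries and 13.4 to 16.8 TPM in untreated WT libraries. Endoderm markers summed to 6.56 to 7.63 TPM in untreated KO libraries and 3.56 to 4.46 TPM in untreated WT libraries. In bulk RNA, fewer cells of a type and less RNA per cell cannot be told apart, and the part of these markers in what follows was not tested.

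The tested genes covered a wide range of abundance. Their median mean level was 19.1 TPM, against 12.4 TPM for 274 other tested genes named Zfp with 1 to 3 digits and 20.8 TPM for all tested genes. Zfp990 was highest at 407.5 TPM, the 345th of the 14107 genes, followed by Zfp979 at 220 TPM, Zfp978 at 186 TPM, Zfp961 at 135 TPM and Zfp936 at 110 TPM. The first 3 of these lie in the cluster of chromosome 4. Between 10 and 100 TPM stood 35 genes, and 17 were below 10 TPM. The 14 genes of the chromosome 4 cluster gave 53.1% to 53.7% of the summed TPM of all 66 genes in untreated KO libraries and 58.2% to 58.6% in untreated WT libraries. With etoposide the shares were 51.1% to 51.3% in KO libraries and 55.2% to 55.9% in WT libraries.

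**Figure D1:**
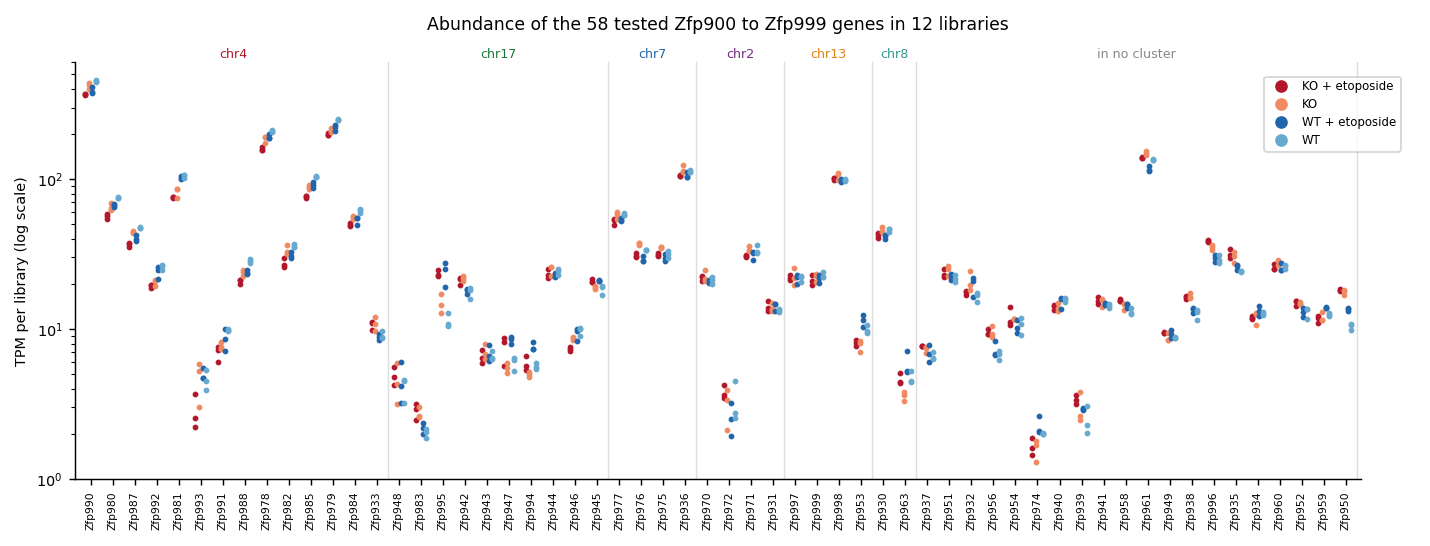
TPM of the 58 tested genes in each of the 12 libraries on a log axis, by cluster and position, with 1 point per library and a colour per group. Zfp990 stands highest, with a mean of 407.5 TPM, and genes of the chromosome 4 cluster fill much of the upper range.

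Without etoposide, 15 of the 58 genes were higher in KO cells than in WT cells, 11 were lower and 32 did not pass the test (adjusted p under 0.05 with limma on log2(TPM + 1)). Of all 14107 tested genes, 28.1% were higher, 21.5% lower and 49.6% either, so the 25.9% and 19.0% of this block lay near the background. The median log2 difference was 0.031 over the 58 genes and 0.04 over all genes. The direction differed by place. In the chromosome 4 cluster 9 of 14 genes were lower and only Zfp933 was higher, with a median log2 difference of -0.195, while the other 44 tested genes held 14 higher and 2 lower. Leaving out WT replicate 1 reduced the 15 higher calls to 9. Median-of-ratios scaling gave 12 higher and 14 lower calls, and FPKM gave 11 and 14.

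Within the chromosome 4 cluster, the lowest log2 difference was in Zfp981. It had 85.2, 86.2 and 74.4 TPM in untreated KO libraries, against 102, 107 and 107 TPM in untreated WT libraries. All 3 KO values lay below all 3 WT values, and the log2 difference was -0.36 ± 0.048 (SE, n = 3 each, limma adjusted p = 6.56e-05). Zfp979, whose abundance was second in the block, had 218, 210.5 and 207 TPM in KO libraries and 248, 251 and 248 TPM in WT libraries. Its groups did not overlap either, at -0.23 ± 0.033 (adjusted p = 0.000127). Zfp985 had 90.96, 88.95 and 86.03 TPM in KO libraries, against 105.1, 103.5 and 103.3 TPM in WT libraries (-0.23 ± 0.035, adjusted p = 0.000183).

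The other 6 genes of the cluster that were called lower also had groups without overlap. How many of all tested genes have groups without overlap was not counted, so this is not read as particular to the cluster. Zfp978 had 173 to 191 TPM in KO libraries and 207.5 to 211 TPM in WT libraries (-0.185 ± 0.039). Zfp980 had 61.9 to 69.2 TPM in KO libraries and 74.6 to 75.7 TPM in WT libraries. Zfp988 had 22.5 to 24.7 TPM in KO libraries and 27.5 to 29.3 TPM in WT libraries. Zfp992, at 19.4 to 21.3 TPM in KO libraries and 24.8 to 26.7 TPM in WT libraries, fell by 0.32 on the log2 scale (adjusted p = 0.00167). Zfp984 had 54.3 to 56.6 TPM in KO libraries and 59.7 to 63.6 TPM in WT libraries, and its call was lost without WT replicate 3 (adjusted p = 0.0521). Zfp991 had 7.36 to 8.19 TPM in KO libraries and 9.64 to 9.94 TPM in WT libraries, and its call was lost without any 1 WT library or without KO replicate 2 or 3. The most abundant gene of the cluster, Zfp990, had 439, 427 and 397 TPM in KO libraries and 458, 451 and 447 TPM in WT libraries, also without overlap, at -0.10 ± 0.040, and did not pass (adjusted p = 0.0503). Zfp987, Zfp982 and Zfp993 did not pass.

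Zfp933 lies at the far end of the cluster. It had 12.08, 9.764 and 10.87 TPM in untreated KO libraries, against 8.753, 8.777 and 9.755 TPM in untreated WT libraries, and its lowest KO value stood only just above its highest WT value. The log2 difference was 0.235 ± 0.079 (adjusted p = 0.0269), and the call was lost without WT replicate 1 or 2 or without KO replicate 1 or 3. Its transcripts shared no run of 75 bases with any other gene in GENCODE M21, while the cluster as a whole had a median of 37.7% of such runs in common with other genes, up to 81.7% in Zfp987. Reads from close copies can be split between genes, so shared runs can affect the values. Zfp985, which was lower, shared 4.36%, and Zfp982, which did not pass, shared 4.93%. The part of shared reads in these differences was not tested.

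Other genes between the first and last member of the chromosome 4 cluster were read for the same comparison. Of 11 that were tested, none was higher and 6 were lower, among them Zfp600, Rex2 and Zfp534, which carry the promoter run and were named after their values were seen. Zfp600 fell by 0.245 on the log2 scale (adjusted p = 0.00133), Zfp534 by 0.19 (adjusted p = 0.00233) and Rex2 by 0.18 (adjusted p = 0.0222). Members of the cluster shared transcript runs of 75 bases with these genes. Zfp980 shared 46.6% of its runs with Rex2 and 42.8% with Zfp600, and Zfp987 shared 38.7% with Zfp534. Reads can be split between such copies, so these falls need not be independent of those of the members, which was not tested. The 8 members that held the run in any listed promoter all lie in the cluster, and 6 were lower in untreated KO cells. Over the whole cluster 9 of 14 genes were lower, and only 10 of the 14 had a promoter sequence. A link between the promoter run and the levels was not tested. On the rest of chromosome 4, 247 of 903 tested genes were higher (27.4%) and 191 were lower (21.2%), near the background of all genes.

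**Figure D2:**
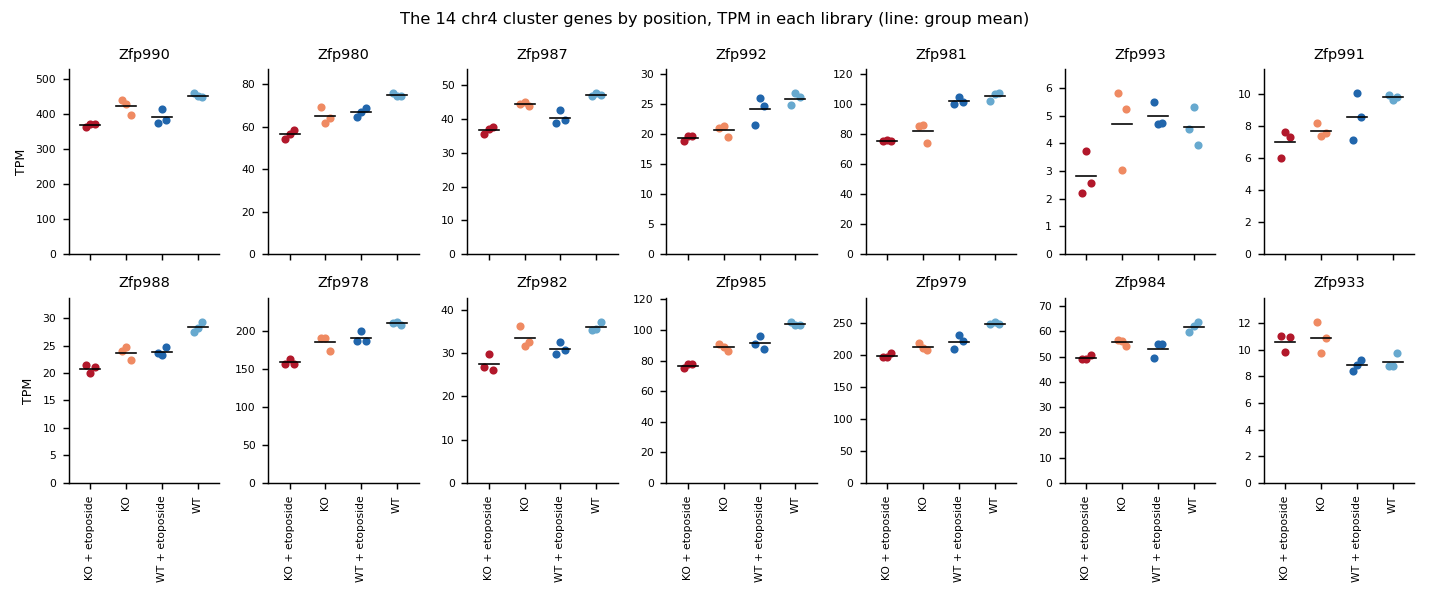
TPM of the 14 genes of the chromosome 4 cluster in each library, in order of position, with 3 points per group and a line at the group mean; each axis starts at 0. Zfp981 has 74.4 to 86.2 TPM in KO libraries and 102 to 107 TPM in WT libraries, and Zfp933 in the last panel runs the other way.

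Outside that cluster, the largest difference was in Zfp950 (chr19:61042692-61129297, minus strand), with 17.8, 16.9 and 18.1 TPM in untreated KO libraries, against 9.78, 10.6 and 10.8 TPM in untreated WT libraries. The groups lay far apart, at 0.71 ± 0.050 (adjusted p = 3.44e-07). Zfp950 overlaps Grk5 on the opposite strand, a gene with at most 4.92 TPM on average, and whether the counting used the strand is not stated. Before its start stand, in GRCm38.p6, the following 170 bases, shown because this gene differed most, with CCAAT in capitals.

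Zfp950, chr19:61140841-61141010, minus strand: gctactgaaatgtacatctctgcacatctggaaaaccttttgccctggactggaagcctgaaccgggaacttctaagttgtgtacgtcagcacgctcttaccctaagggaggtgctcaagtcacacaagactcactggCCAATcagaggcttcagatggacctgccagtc

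The genes in no cluster were higher or did not pass: 9 of 20 were higher (45%) and none was lower at an adjusted p under 0.05 (limma). Over all genes 28.1% were higher and 21.5% lower. Zfp956 had 8.83, 10.4 and 9.33 TPM in KO libraries and 7.16, 6.77 and 6.22 TPM in WT libraries (0.45 ± 0.088, adjusted p = 0.00119). Zfp938 had 17.34, 16.11 and 16.45 TPM in KO libraries and 11.5, 13.1 and 13.3 TPM in WT libraries (0.38 ± 0.061, adjusted p = 0.000295). Neither gene had overlapping groups. Zfp935 had 27.5 to 32.5 TPM in KO libraries and 23.9 to 24.3 TPM in WT libraries (0.31 ± 0.063), but all of its runs of 75 bases also occur in other genes, most of them in Gm49359. Zfp996 had 33.9 to 36.6 TPM in KO libraries and 27.6 to 31.0 TPM in WT libraries (0.27 ± 0.051). Its annotated span of 686 kb overlaps 4 other genes with a mean of at least 1 TPM, all on the same strand. Zfp961, the most abundant of these genes, had 149.7, 155 and 145 TPM in KO libraries and 133, 135 and 133 TPM in WT libraries, without overlap (0.16 ± 0.033, adjusted p = 0.00148).

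Zfp932 has been studied, with its close copy Gm15446, as a repressor of endogenous retroviruses in mouse cells. It had 18.2, 19.8 and 24.4 TPM in untreated KO libraries, against 15.2, 16.9 and 17.4 TPM in untreated WT libraries, a difference of 0.31 ± 0.111 (adjusted p = 0.0355). The call was lost without WT replicate 1 or 2 or without KO replicate 2 or 3. Zfp951 and Zfp952 passed narrowly, with adjusted p of 0.047 and 0.0477, and each lost its call in 7 of 12 fits without 1 library.

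In the chromosome 17 cluster 3 of 10 genes were higher in untreated KO cells (30%) and none was lower. Over all genes 28.1% were higher and 21.5% lower, so the higher share lay near the background. Zfp942 had 20.8, 22.6 and 21.8 TPM in KO libraries and 15.97, 18.73 and 18.34 TPM in WT libraries (0.29 ± 0.065, adjusted p = 0.00307). Zfp944, with nearly the same promoter letters, had 26.05, 25.8 and 22.63 TPM in KO libraries and 24.5, 24.95 and 22.88 TPM in WT libraries, overlapping groups at 0.039 ± 0.066. The difference between these 2 genes was not tested. Zfp983 had 2.585 to 3.04 TPM in KO libraries and 1.865 to 2.15 TPM in WT libraries, and Zfp995 had 12.83 to 17 TPM in KO libraries and 10.43 to 12.83 TPM in WT libraries, groups that meet at 1 value. The call of Zfp983 was lost in 2 of the 12 fits without 1 library and with quantile normalization. That of Zfp995 was lost in 4 of the 12 fits, and with FPKM, median-of-ratios scaling, the replicate block or no filter.

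In the smaller clusters, Zfp976 and Zfp975 on chromosome 7 were higher in untreated KO cells, at 36.6 to 37.3 TPM in KO libraries and 33.5 to 33.6 TPM in WT libraries for Zfp976. The call of Zfp975 was lost without WT replicate 1, KO replicate 2 or KO replicate 3. Zfp953 on chromosome 13, which overlaps Zfp595 on the same strand, was lower, with 8.09, 7.06 and 8.32 TPM in KO libraries and 9.45, 9.73 and 10.6 TPM in WT libraries (-0.31 ± 0.079, adjusted p = 0.00651). Zfp963 on chromosome 8 was lower, with 3.33 to 3.82 TPM in KO libraries and 4.46 to 5.26 TPM in WT libraries, and lost its call in 4 of the 12 fits without 1 library. None of the 4 tested genes of the chromosome 2 cluster passed; Zfp971, its most abundant, had 33.59, 35.69 and 33.04 TPM in untreated KO libraries and 32.14, 32.56 and 36.18 TPM in untreated WT libraries, overlapping groups. Zfp998, the most abundant of the chromosome 13 cluster, had 109.9, 108 and 98.53 TPM in untreated KO libraries and 96.87, 98.83 and 99.44 TPM in untreated WT libraries, and did not pass (0.098 ± 0.038, adjusted p = 0.0503). Zfp930, the most abundant of the chromosome 8 cluster, had 44.54 to 48.12 TPM in KO libraries and 44.38 to 46.41 TPM in WT libraries (0.003 ± 0.043). The 6 untested genes of the chromosome 2 cluster shared 76.0% to 100% of their runs of 75 bases with other genes, and the part of shared reads in their low values was not tested.

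With etoposide in both genotypes, 10 of the 58 genes were higher in KO cells than in WT cells, 15 were lower and 33 did not pass. Over all tested genes 22.5% were higher, 21.7% lower and 44.1% either, against 17.2% and 25.9% in this block. This comparison shares no library with the untreated one. The 18 genes called in both had the same direction, 10 higher and 8 lower. That is 69.2% of the 26 called without etoposide and 72% of the 25 called with it. The matching share over all genes was not computed, so this is not read as particular to the block. No gene was called in opposite directions, and across the 58 genes, which are not independent, the log2 differences correlated at 0.78. Leaving out WT replicate 1 with etoposide reduced the 10 higher calls to 6.

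In the chromosome 4 cluster 10 of 14 genes were lower in KO cells with etoposide and Zfp933 was again higher, a call lost without WT or KO replicate 1, WT replicate 2 or KO replicate 3 of the libraries with etoposide. Zfp981 had 75.1, 76.4 and 75.5 TPM in KO libraries with etoposide, against 100.1, 104.6 and 101.4 TPM in WT libraries with etoposide. These values lay well apart, at -0.43 ± 0.048 (adjusted p = 2.15e-05). Zfp978 had 156.7, 162.4 and 156.8 TPM in KO libraries and 186.5, 199.9 and 186.6 TPM in WT libraries (-0.265 ± 0.039, adjusted p = 0.00017). Zfp985 had 74.8 to 77.5 TPM in KO libraries and 87.8 to 95.8 TPM in WT libraries, again without overlap. Zfp992 was lower at -0.30 ± 0.065. Zfp987, which did not pass without etoposide, had 35.5 to 37.7 TPM in KO libraries and 38.8 to 42.6 TPM in WT libraries. Its call was lost without WT replicate 2 or KO replicate 1 with etoposide, and the call of Zfp982 was lost in 8 of the 12 fits without 1 library.

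Zfp993 had the lowest log2 difference of the block in this comparison, with 2.222, 3.702 and 2.555 TPM in KO libraries with etoposide, against 5.495, 4.704 and 4.72 TPM in WT libraries with etoposide. The log2 difference was -0.66 ± 0.190 (adjusted p = 0.0144), and the call was lost without WT or KO replicate 1 with etoposide. Of its runs of 75 bases 78.7% occur in other genes. Without etoposide the groups overlapped, with 3.02 to 5.80 TPM in KO libraries and 3.94 to 5.30 TPM in WT libraries.

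Outside chromosome 4, Zfp950 had the highest log2 difference of the genes that passed, with 18.4, 17.9 and 18.2 TPM in KO libraries with etoposide, against 13.6, 13.3 and 13.8 TPM in WT libraries with etoposide (0.40 ± 0.050, adjusted p = 5.38e-05). Zfp996 had 37.8, 39.1 and 38.8 TPM in KO libraries and 28.1, 31.1 and 29.5 TPM in WT libraries (0.37 ± 0.051, adjusted p = 9.88e-05). Zfp956, Zfp935, Zfp938 and Zfp961 also passed, between 0.24 and 0.35, and kept their calls in each fit without 1 library. Less stable were Zfp942 at 0.22, Zfp952 at 0.20 and Zfp983 at 0.275. Their calls were lost in 3, 4 and 7 of the 12 fits without 1 library, in that order. Zfp953 was lower in KO cells, with 8.01, 7.66 and 8.42 TPM in KO libraries and 10.3, 11.5 and 12.3 TPM in WT libraries (-0.45 ± 0.079, adjusted p = 0.000673). Zfp994 and Zfp946 of the chromosome 17 cluster were lower too, at -0.32 and -0.30, and so was Zfp959, at -0.24. Zfp974 was called at an adjusted p of 0.0496 and lost the call in 10 of the 12 fits without 1 library.

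**Figure D3:**
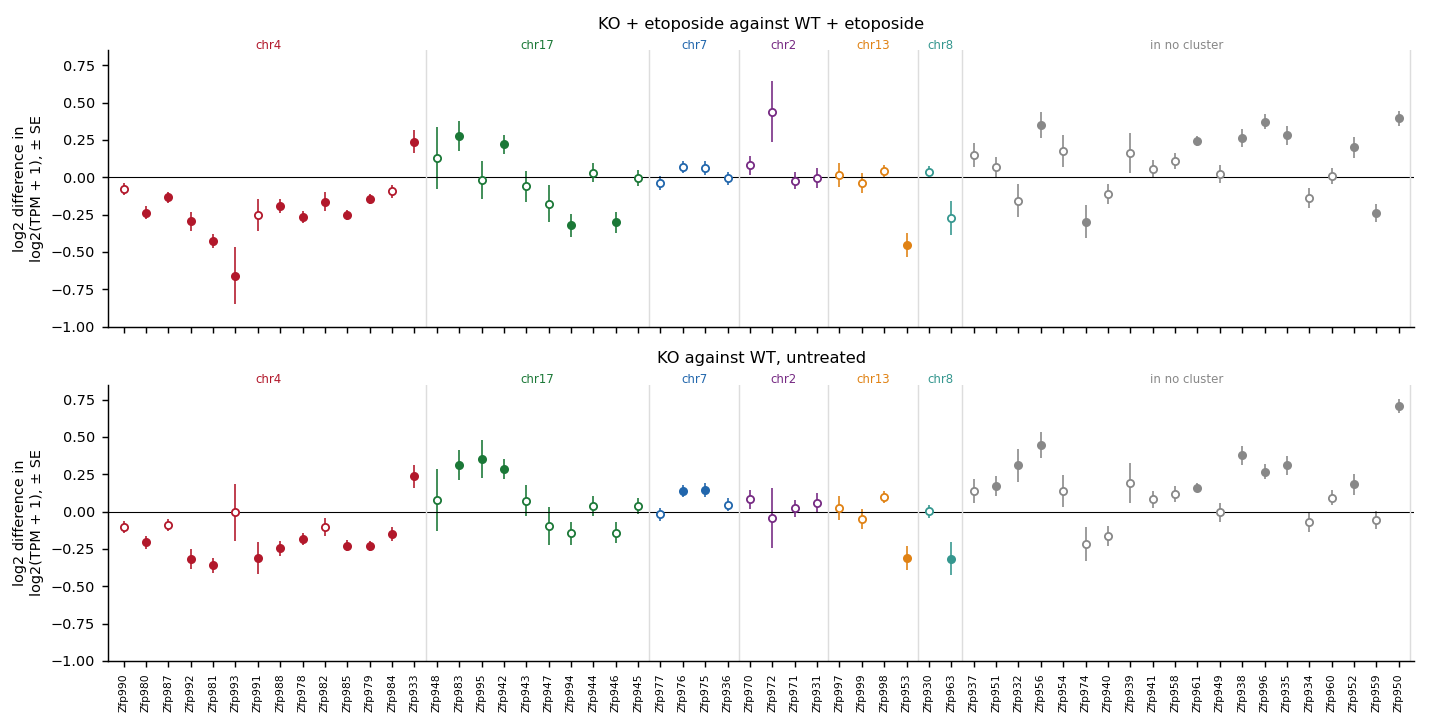
Log2 difference in log2(TPM + 1) of each tested gene with its SE, KO against WT, with etoposide above and without it below; filled points have an adjusted p under 0.05. In both panels most points of the chromosome 4 cluster lie below 0 while Zfp933 lies above it, and Zfp950 reaches 0.71 without etoposide and 0.40 with it.

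**Figure D4:**
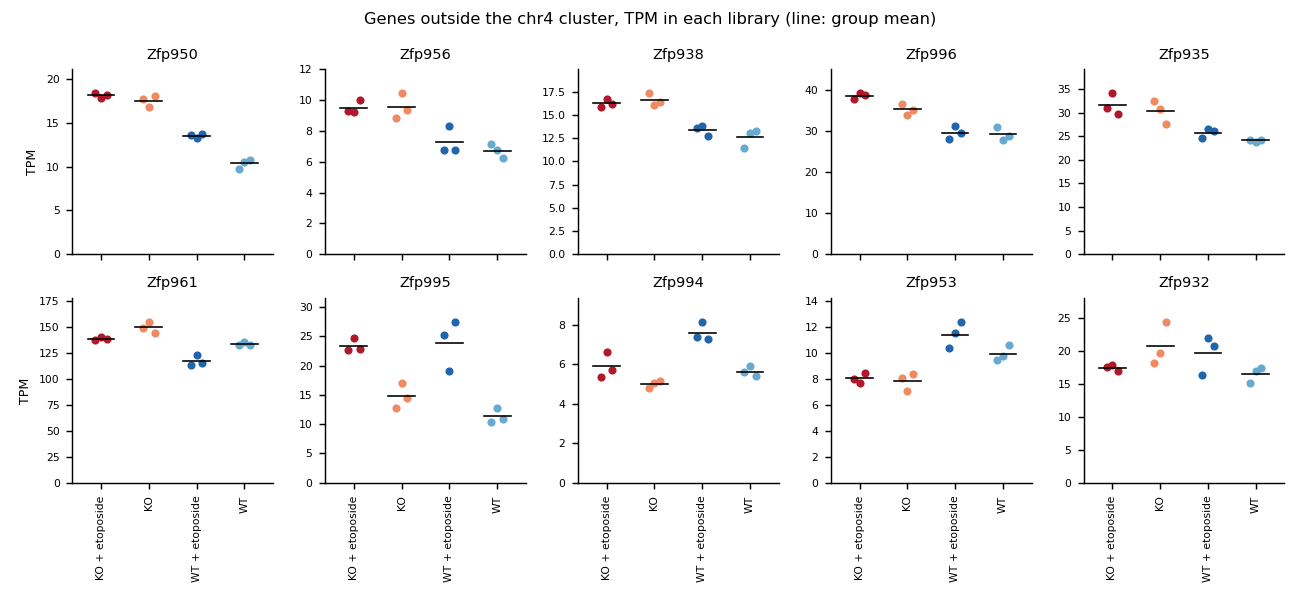
TPM of 10 genes outside the chromosome 4 cluster in each library, with 3 points per group and a line at the group mean; each axis starts at 0. Zfp950 has 16.9 to 18.4 TPM in the 6 KO libraries, above both WT groups, and Zfp995 is highest in the libraries with etoposide.

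Etoposide was compared with no etoposide within each genotype. In WT cells 5 of the 58 genes were higher with etoposide, 12 were lower and 41 did not pass, which is 8.62% higher and 20.7% lower. Over all genes 20.8% were higher, 13.5% lower and 34.3% either. In KO cells 1 was higher, 14 were lower and 43 did not pass (1.72% and 24.1%), against 14.5% higher, 10.5% lower and 25% either over all genes. These 2 comparisons share no library. Both called 11 genes in the same direction, 1 higher and 10 lower, and none in opposite directions. The 11 are 73.3% of the 15 called in KO cells and 64.7% of the 17 called in WT cells. The matching share over all genes was not computed. Quantile normalization gave 2 higher and 17 lower calls in WT cells. Without WT replicate 2 with etoposide the 5 higher calls in WT cells became 3. Without KO replicate 1, KO replicate 2 with etoposide or KO replicate 1 with etoposide, the 14 lower calls in KO cells became 9, 9 and 8.

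Marker levels moved with etoposide too. The summed stem cell markers were 6810 to 7127 TPM in KO libraries with etoposide, against 7130 to 7252 TPM without, and 7360 to 7693 TPM in WT libraries with etoposide, against 7800 to 7816 TPM without. Nanog, Pou5f1 and Zfp42 were lower with etoposide in both genotypes, and Klf4 was higher in KO cells. Of 3 tested neural markers Nes and Tubb3 were lower in both genotypes, and of 2 tested mesoderm markers Eomes was. Of 3 tested endoderm markers Pdgfra was higher in both, and of 2 tested feeder markers Col1a1 was, with mean levels of at most 2.28 TPM in any group. The other tested markers of these 2 lists did not pass. Thy1 (feeder) was at -0.28 in KO cells and -0.25 in WT cells. Dab2 (endoderm) was at -0.29 in KO cells and 0.061 in WT cells, and Gata4 (endoderm) at 0.061 and 0.205. The part of these markers in the changes of the zinc finger genes was not tested.

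The chromosome 4 cluster held most of the lower calls, with 8 of its 14 genes lower in KO cells and 9 of 14 in WT cells. Of the 11 other tested genes between its first and last member, 2 were lower in KO cells and 3 in WT cells. None of the 11 was higher. On the rest of chromosome 4, 10.3% of 903 tested genes were lower in KO cells and 12.3% in WT cells. Zfp990 had 361, 372 and 370 TPM in KO libraries with etoposide, against 439, 427 and 397 TPM in untreated KO libraries (-0.19 ± 0.040, adjusted p = 0.00396). In WT cells it had 373, 413 and 382 TPM with etoposide and 458, 451 and 447 TPM without (-0.215 ± 0.040, adjusted p = 0.00131). Neither pair of groups overlapped. Zfp987 had 35.5 to 37.7 TPM in KO libraries with etoposide and 43.7 to 45.0 TPM without, at -0.27, and 38.8 to 42.6 TPM in WT libraries with etoposide and 46.88 to 47.55 TPM without, at -0.22. The summed level of the 14 genes was 1108 ± 16.1 TPM in KO cells with etoposide, 1254 ± 52.8 TPM in untreated KO cells, 1256 ± 53.6 TPM in WT cells with etoposide and 1417 ± 3.901 TPM in untreated WT cells (SD, n = 3 each).

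All 4 genes of the chromosome 7 cluster were lower with etoposide in KO cells, though the call held in every fit without 1 library only for Zfp976. Zfp976 had 32.07, 30.03 and 30.5 TPM in KO libraries with etoposide, against 37.3, 37.2 and 36.6 TPM in untreated KO libraries (-0.26 ± 0.040, adjusted p = 0.000522). Zfp936, the most abundant of the 4, had 104.5, 106.5 and 104.7 TPM in KO libraries with etoposide and 124.8, 113.2 and 111.8 TPM in untreated KO libraries. In WT cells only Zfp976 of the 4 passed. The fall was not particular to these members. Of 4 other tested genes between the first and last member of the cluster, 3 were lower in KO cells and 2 in WT cells. Over all genes 10.5% were lower in KO cells and 13.5% in WT cells.

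Of the 5 genes higher with etoposide in WT cells, 4 lie in the chromosome 17 cluster. Zfp995 had 25.3, 19.1 and 27.4 TPM in WT libraries with etoposide, against 10.4, 12.8 and 10.8 TPM in untreated WT libraries (1.00 ± 0.127, adjusted p = 6.08e-05). It was also the one gene called higher in KO cells, with 22.6, 24.6 and 22.8 TPM with etoposide and 12.8, 17.0 and 14.5 TPM without (0.63 ± 0.127, adjusted p = 0.00296). Its groups did not overlap in either genotype. Zfp994 had 7.305 to 8.142 TPM in WT libraries with etoposide and 5.407 to 5.903 TPM without (0.38 ± 0.079), and Zfp947 had 7.946 to 8.849 TPM with etoposide and 5.255 to 6.391 TPM without (0.45 ± 0.126). Zfp945 was at 0.18, and the calls of Zfp945 and Zfp947 were lost without WT replicate 2 with etoposide, and also without untreated WT replicate 1 for Zfp945 and WT replicate 3 for Zfp947. With quantile normalization Zfp945, Zfp947 and Zfp994 all lost their calls, so that Zfp995 alone stayed called higher in this cluster. The call of Zfp945 was also lost in the fit on the compared groups alone. The fifth gene was Zfp950, with 13.6, 13.3 and 13.8 TPM in WT libraries with etoposide, against 9.78, 10.6 and 10.8 TPM in untreated WT libraries (0.36 ± 0.050, adjusted p = 0.000136).

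**Figure D5:**
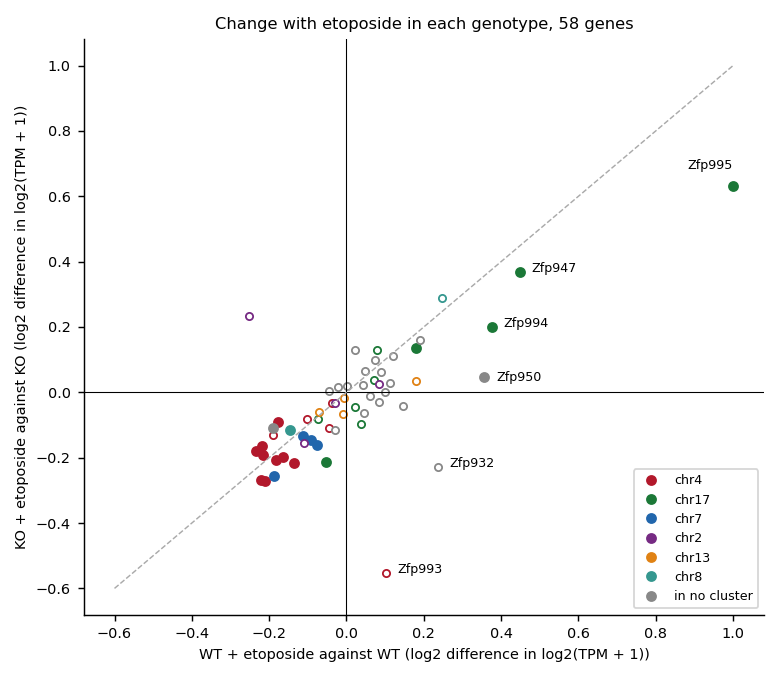
Log2 difference in log2(TPM + 1) with etoposide in KO cells (vertical axis) and in WT cells (horizontal axis) for the 58 genes; filled points have an adjusted p under 0.05 in at least 1 genotype and the dashed line marks equal change. Filled points of the chromosome 4 cluster lie below 0 on both axes, and Zfp995 stands at 1.00 in WT cells and 0.63 in KO cells.

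The change with etoposide in KO cells was set against that in WT cells by the difference of the 2 changes. No gene of the block passed (limma), against 1.23% of all genes (0.0709% with a higher and 1.16% with a lower change in KO cells). At an unadjusted p under 0.05 there were 4 of 58, all lower in KO cells, namely Zfp950, Zfp932, Zfp993 and Zfp959, against 11.4% of all genes. Zfp950 came closest, with a change of 0.046 in KO cells and 0.36 in WT cells, a difference of -0.31 ± 0.0705 (adjusted p = 0.0633).

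The machinery through which KRAB proteins act was read from a list of 23 genes, all tested. In untreated KO cells 7 were higher and 7 lower, 30.4% each, against 28.1% higher and 21.5% lower over all genes. With etoposide 6 were higher and 6 lower in KO cells, 26.1% each, against 22.5% and 21.7% over all genes. Trim28, the corepressor bound by the KRAB domain, had 1558 ± 27.5 TPM in untreated KO cells and 1654 ± 4.97 TPM in untreated WT cells (SD, n = 3 each), a difference of -0.09 ± 0.018 (adjusted p = 0.00179). With etoposide its levels were 1357 ± 4.82 TPM in KO cells and 1354 ± 23.2 TPM in WT cells. Setdb1, the methyltransferase it recruits, was higher in KO cells, with 189 ± 5.14 TPM in untreated KO cells and 169.5 ± 1.45 TPM in untreated WT cells (0.16 ± 0.025, adjusted p = 0.000267). Uhrf1, needed to maintain DNA methylation, was lower in untreated KO cells at -0.22, and the deacetylase gene Hdac2, Pphln1 of the HUSH complex and Chd3 of the NuRD complex were higher, at 0.16, 0.27 and 0.33. With etoposide, 14 of the 23 were lower and none was higher in KO cells (limma), while 14 were lower and 3 higher in WT cells. Over all genes 10.5% were lower and 14.5% higher in KO cells, and 13.5% lower and 20.8% higher in WT cells. Trim28 was among the lower ones, at -0.20 in KO cells and -0.29 in WT cells.

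Zinc finger genes of other names with studied roles were taken as a further list, of which 20 of 22 were tested. In untreated KO cells 5 were higher and 4 lower, or 25% and 20%, against 28.1% and 21.5% over all genes. Zfp809, which silences murine leukaemia viruses, was at 91.4 ± 1.38 TPM in KO cells and 73.5 ± 2.29 TPM in WT cells (0.31 ± 0.039, adjusted p = 3.73e-05). Zfp445, which acts on imprinted loci, was higher at 0.27, while Zfp819 was lower at -0.60. Among the 274 other tested Zfp genes, 69 were higher (25.2%) and 56 lower (20.4%) in untreated KO cells, shares near those of the Zfp900 to Zfp999 block. Of the 58 genes, 39 were called in at least 1 of the 4 comparisons of genotype or treatment, 5 in all 4 and 19 in none. The matching counts over all genes were not made.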

How the data were processed

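RNA of 12 libraries was measured, 3 in each of 4 groups taken from the genotype and treatment labels. Per the labels' protocols, poly(A) RNA depleted of ribosomal RNA was made into strand-specific libraries. The tools named, per the submitters' processing notes, are Trim Galore 0.6.6, cutadapt 3.4, HISAT2 2.2.1 and StringTie 2.2.1, with the build GRCm39. Per the file headers, the authors deposited TPM, abundances corrected for transcript length and for library total. The deposited FPKM values were scaled by length and mapped fragments, per the file headers. The deposited coverage, per the file headers, is mean read depth over a gene, a signal without scaling by library size; with FPKM it gave the depth in aligned bases. None of these is a count, so no count model was used.

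Entries sharing a gene ID were summed. Values were log2(TPM + 1), for 14107 genes of mean TPM at least 1, and limma 3.58.1 (R 4.3.3) was fitted with a trend to 4 group means over all 12 libraries, with 5 comparisons. P values were adjusted by Benjamini-Hochberg over all tested genes within a comparison; they measure the spread between these libraries, which may be technical. A fold change on this scale understates changes of low genes. The code was tested on simulated data. Python 3.11.15, numpy 2.4.6, pandas 2.3.3, Biopython 1.88 and matplotlib 3.10.9 were used for the rest. Sequence features were matched by symbol: runs of 75 bases and open reading frames in GENCODE M21 transcripts, promoters (250 bases before to 50 after a start, first listed start) in the RefSeq table of GRCm38.p6, with identity from global alignment.

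The genes and lists were chosen with earlier results of these data known. Named genes were drawn from the 5 of highest mean TPM, the 10 highest and 10 lowest called in each comparison of genotypes, 5 and 5 in each comparison of treatment, the extremes of each cluster, 4 at the filter, and up to 4 of each list. Not all of these are given with values in each comparison. Genes named beyond these were picked with their values in view. Alternatives tried were a pseudocount of 0.1, no filter and a filter at 5 TPM, FPKM, quantile or median-of-ratios scaling, a block for the replicate number, a robust spread, fits on the compared groups alone, leaving out each library, and other gaps between clusters.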

Additional observations from a re-analysis of the deposited data

How the results depend on the processing

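The log2 differences of single genes changed sign in 232 values under the alternatives, 0 of which passed the test in either setting, and no total of called genes (higher and lower together) moved by more than 1.5 times. Of the values of single genes under the alternatives, 5732 kept their side of the threshold, 179 no longer passed and 76 newly passed. Without 1 library the total of called genes ranged from 18 to 27 for KO against WT untreated (26 with all libraries), 18 to 24 with etoposide (25), 10 to 17 for etoposide in KO cells (15), 15 to 18 in WT cells (17) and 0 for the difference of changes. Lower calls in the chromosome 4 cluster ranged over these fits from 7 to 11 (9), 7 to 11 (10), 7 to 9 (8) and 7 to 10 (9). Of the called genes, 16 of 26, 17 of 25, 8 of 15 and 12 of 17 kept their call in every fit without 1 library. The replicate block gave 24, 22, 15, 17 and 0 calls in the same order; same-numbered libraries did not deviate together (r from -0.045 to 0.045 over 18 pairs, 0 above 0.1, 4 of 12 libraries closest to their own number), so they share only a number. Starts up to 0.5 Mb apart gave 8 clusters and up to 3 Mb gave 6. The balance of 15 higher and 11 lower calls in untreated KO cells turned to 12 and 14 with median-of-ratios scaling and 11 and 14 with FPKM. With 3 libraries a group, the median SE was 0.064 on the log2 scale.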
